A study of Mus musculus with 2 samples.

Results

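The loci described here carry the MHC class I heavy chain genes H2-K1 and H2-D1, the class I light chain gene B2m on its own chromosome, the antigen processing genes Tap1, Tap2, Psmb8 and Psmb9, and the cytokine genes Tnf, Lta and Ltb. Their Runx3 peaks were taken as all deposited peaks with a midpoint in 1 of 3 mm9 windows drawn around these genes. The window of H2-K1 and the processing genes ran over 270 kb of chromosome 17 (chr17:34100000-34370000). That of Lta, Tnf, Ltb and H2-D1 ran over 120 kb of the same chromosome (chr17:35310000-35430000). The B2m window ran over 90 kb of chromosome 2 (chr2:121930000-122020000). Together they held 39 of the 19647 peaks, 0.199% of the list, with 18, 18 and 3 peaks.

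The list comes from 1 chromatin immunoprecipitation sequencing (ChIP-seq) library for Runx3, a Runt-domain transcription factor, obtained with a home-made polyclonal antibody, and a matching library with non-immune rabbit serum was the control. Each library used splenic natural killer (NK) cells of wild-type ICR mice that had been injected 2 times with complexes of IL-15 and its receptor alpha chain, with 2 days between injections. Cells were enriched by negative selection and sorted for NKp46, an activating receptor of NK cells. There is 1 library per antibody, so no value has a replicate error, IL-15 treatment has no untreated counterpart, and the serum library entered no comparison here. The file gives a position per peak and neither height nor read count. Depth is therefore unknown, and the identity of the sorted cells was not checked against expression of their markers.

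MHC class I molecules present peptides on the cell surface and are made of a heavy chain, such as H2-K1 or H2-D1, and the light chain B2m. Psmb8 and Psmb9 are catalytic subunits of the immunoproteasome, which cuts proteins into peptides, and Tap1 and Tap2 form the transporter that carries these peptides into the endoplasmic reticulum. NK cells read class I molecules on other cells through inhibitory receptors and also carry class I themselves. Tnf, Lta (lymphotoxin alpha) and Ltb (lymphotoxin beta) are neighbouring genes of the TNF cytokine family, and NK cells are a source of Tnf.

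The densest of the 3 windows was that of the TNF genes and H2-D1. Its 18 peaks gave 0.150 peaks per kb (exact 95% Poisson interval 0.0889 to 0.237, counting error only), or a peak every 6.67 kb, which was 13.7 times the mean of chromosome 17 (0.0110 per kb, 1011 peaks). The H2-K1 and antigen processing window gave 0.0667 peaks per kb (0.0395 to 0.105), or 6.08 times the chromosome mean. The B2m window gave 0.0333 peaks per kb (0.00687 to 0.0974), 3.90 times the mean of chromosome 2 (0.00854 per kb), and the interval of this ratio, 0.805 to 11.4, included 1. The intervals treat peaks as independent, which closely spaced peaks are not.

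Windows of equal length were laid end to end from each window over the stretch between the first and last peak of its chromosome. Among them, none of the other 120 kb windows of chromosome 17 held as many peaks as the TNF and H2-D1 window (0 of 766, 0%). The next densest held 14, the median window held 0, and 314 of the 766 held any. Of 339 windows of 270 kb, 1 (0.295%) held at least the 18 peaks of the H2-K1 and antigen processing window, whereas the median held 1.00. That window, chr17:35180000-35450000, held 25 peaks and encloses the TNF and H2-D1 window. For B2m the count was common, since 208 of 1980 windows of 90 kb on chromosome 2 (10.5%) held 3 peaks or more, and the fullest held 13. These shares describe ranks among windows that differ in gene content, and genes per window were not matched because no mm9 annotation was at hand.

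**Figure D1:**
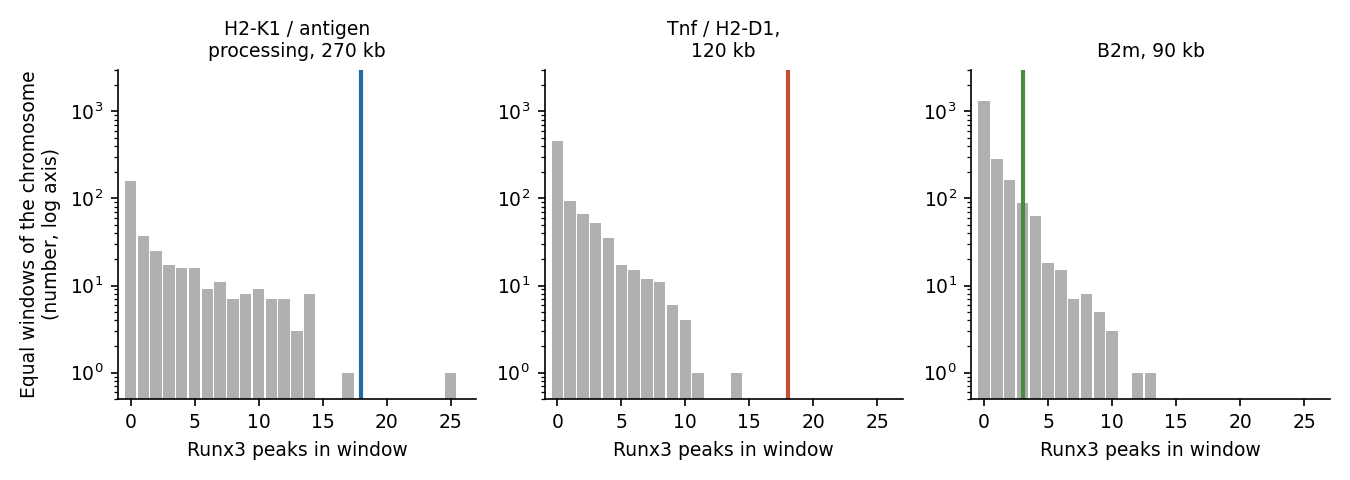
Number of Runx3 peaks per window (x axis) against the number of equal windows of the same chromosome with that many peaks (y axis, log scale), in grey, for windows of 270, 120 and 90 kb. The coloured line marks the window described: 18 peaks for H2-K1 and antigen processing, 18 for Tnf and H2-D1, 3 for B2m.

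The windows next to them were less full. The 270 kb windows on either side of the H2-K1 and antigen processing window held 12 and 4 peaks, the 120 kb windows flanking the TNF and H2-D1 window held 4 and 3, and those flanking the B2m window held 1 each. Between both chromosome 17 windows lay 31 peaks in 940 kb, or 0.330 per 10 kb (0.224 to 0.468), against 0.667 and 1.50 per 10 kb within them. This intervening stretch was still above the rest of chromosome 17, where 944 peaks gave 0.104 per 10 kb (0.0974 to 0.111). Of 952 bins of 100 kb on the chromosome 600 (63.0%) were empty, and the mean was 1.06 peaks. Over the 4 Mb around the windows 7 of 40 bins were empty, and the fullest, with 18 peaks, began 1.2 Mb from the start of the H2-K1 window and overlapped the TNF and H2-D1 window, which held 17 of its 18 peaks.

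**Figure D2:**
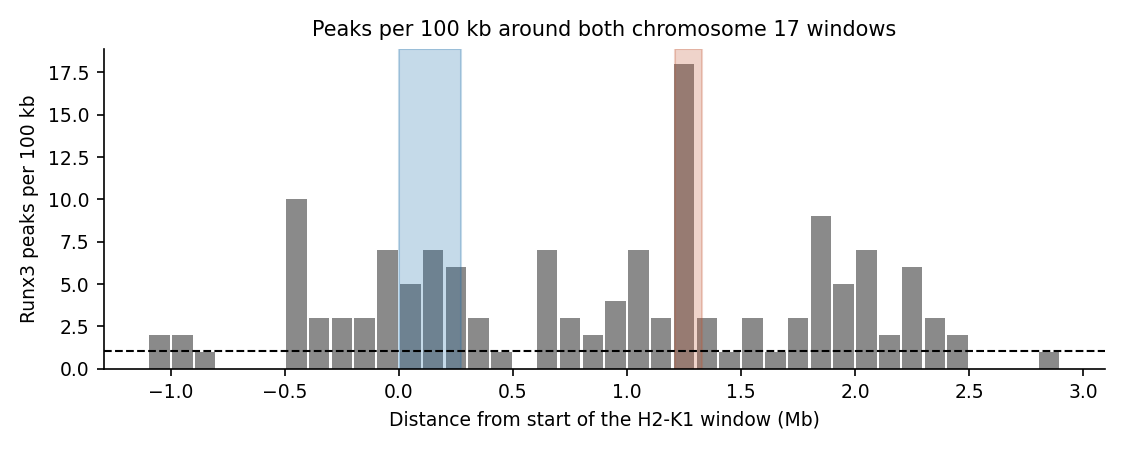
Runx3 peaks per 100 kb (y axis) over 4 Mb of chromosome 17, by distance from the start of the H2-K1 window in Mb (x axis). The blue band is the H2-K1 and antigen processing window, the red band the Tnf and H2-D1 window, and the dashed line the chromosome mean of 1.06 peaks per 100 kb; the highest bar, 18 peaks, overlaps the red band, which holds 17 of them.

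H2-K1 encodes a classical class I heavy chain. In the RefSeq gene table, which is on GRCm38 and was used for gene order only, 10 protein-coding genes lie between H2-K1 and Psmb9: Ring1, H2-Ke6, Slc39a7, Rxrb, Col11a2, H2-Oa, Brd2, H2-DMa, H2-DMb2 and H2-DMb1. H2-DMa, H2-DMb1 and H2-DMb2 encode chains of H2-DM, which loads peptides onto MHC class II, and H2-Oa a chain of H2-O, which modulates H2-DM. Psmb9, Tap1, Psmb8 and Tap2 then follow with no protein-coding gene between them. The 18 peaks of this window could therefore lie at members or at these other genes, and peaks were not assigned to genes, since no annotation of their build was at hand.

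The peaks of the H2-K1 and antigen processing window were broad. Their widths ran from 417 to 1770 bp with a median of 772 bp (order-statistic 95% interval 630 to 1103), whereas the other 993 peaks of chromosome 17 had a median of 604 bp and quartiles of 505 and 776 bp. Of the 18, 15 were wider than the median of the whole list, 604 bp. Widths over 1000 bp occurred in 5 of 18 (27.8%), against 10.4% of the whole list and 10.2% of the other peaks of the chromosome. Among 120 windows of 270 kb on chromosome 17 with at least 3 peaks, 8 (6.67%) had a median width as high, and the highest was 982 bp. Peaks of 1 library are not replicates, so these values carry no test.

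The widest peak of all 3 windows lay at chr17:34255354-34257123 and measured 1770 bp, with 6 wider peaks on the chromosome. It was the first of 3 peaks in 4.73 kb. The next began after a gap of 23 bp (chr17:34257147-34258141, 995 bp), and the third after 841 bp (chr17:34258983-34260085, 1103 bp). Listed peaks covered 81.7% of this stretch, leaving 2 short gaps. It stood 156 to 159.5 kb from the window start, and a stretch of 47.9 kb without a peak followed it, the longest in the window.

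A second run of 3 peaks, at most 5 kb between neighbouring midpoints, lay nearer the window start. Its peaks measured 855 bp (chr17:34161222-34162076), 1113 bp (chr17:34164195-34165307) and 1210 bp (chr17:34168370-34169579), and they covered 38.0% of 8.36 kb. The first peak of the window stood alone at chr17:34114734-34116082, was 1349 bp wide and was followed by 20.9 kb without a peak. The midpoints of all of these wide peaks stood within 159.5 kb of the window start.

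The third run lay at the far end, with peaks of 609 bp (chr17:34341126-34341734), 745 bp (chr17:34344402-34345146) and 797 bp (chr17:34347344-34348140) in 7.01 kb. The last of these was also the last peak of the window, and the next peak on the chromosome lay 58.5 kb beyond the window's end. From 160 to 200 kb into the window 4 successive bins of 10 kb held no peak, and the 6 peaks beyond measured 469 to 797 bp, none over 1000 bp. The narrowest peaks of the window were 417 bp (chr17:34238469-34238885) and 469 bp (chr17:34308010-34308478). The 5 peaks over 1000 bp thus stood in the lower-numbered part of the window, which also held narrower peaks, among them the narrowest at 139 kb from the window start.

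**Figure D3:**
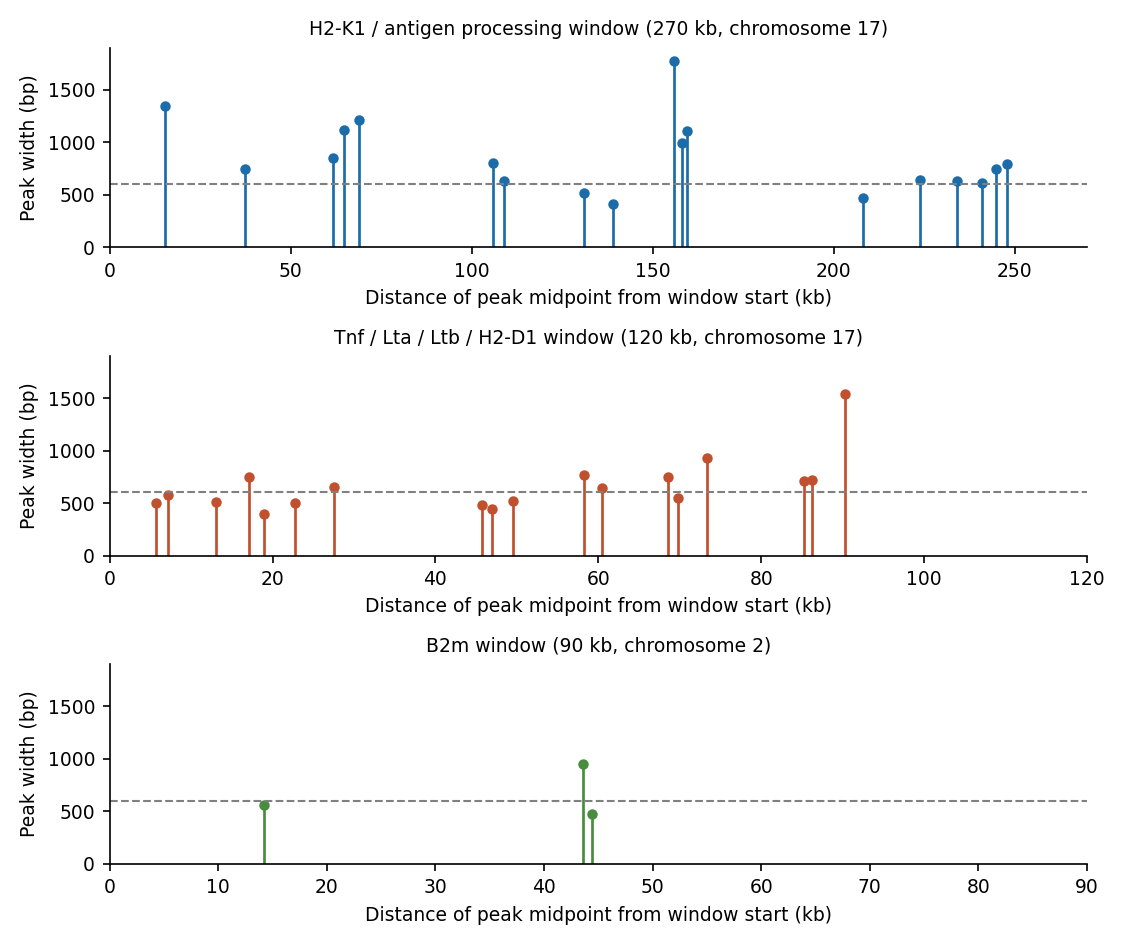
Runx3 peaks of the 3 windows by distance of the midpoint from the window start in kb (x axis) and by peak width in bp (y axis); each stem is 1 peak and the dashed line is the median width of the other peaks of the chromosome (604, 607 and 598 bp). The 1770 bp peak and its close neighbours stand at 156 to 159.5 kb in the top panel, and peaks in the middle panel stop at 90.3 kb.

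Tnf encodes the cytokine TNF, Lta and Ltb encode the subunits of lymphotoxin, which as a membrane heterotrimer signals through Ltbr, and H2-D1 encodes a second class I heavy chain. Ltb, Tnf and Lta follow each other in the gene table with no protein-coding gene between them, and Nfkbil1, Atp6v1g2 and Ddx39b stand between Lta and H2-D1. Prrc2a, Aif1 and Lst1 are the last protein-coding genes listed before Ltb, and whether they fall within the window was not checked. Peaks here could likewise lie at members or at other genes. The 18 peaks of this window were of ordinary width. The median was 609.5 bp (order-statistic 95% interval 499 to 745) with a range of 397 to 1535 bp, against 607 bp in the other peaks of the chromosome. Of them 9 were wider than the list median, and 1 of 18 (5.56%) exceeded 1000 bp. Peaks covered 9.94% of the window, against 5.70% of the H2-K1 and antigen processing window and 2.20% of the B2m window. By covered length 1 of the 766 equal windows ranked higher.

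Peaks in the TNF and H2-D1 window were close to each other, which follows in part from the density given above and is no separate trait. The median distance between neighbouring midpoints was 3.86 kb, and 12 of 17 neighbouring pairs were at most 5 kb apart, whereas 21.1% of the pairs of the whole list were. In the H2-K1 and antigen processing window 7 of 17 pairs were that close, with a median distance of 7.82 kb. Runs of 3 or more such peaks held 14 of the 18 peaks (77.8%) of the TNF and H2-D1 window, and 9 of 18 (50.0%) of the H2-K1 and antigen processing window. The share of the whole list in such runs was not computed, so whether these shares are unusual is not known.

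The longest run of all 3 windows held 5 peaks in 15.1 kb. Its peaks measured 512 bp (chr17:35322798-35323309), 745 bp (chr17:35326776-35327520), 397 bp (chr17:35328716-35329112), 497 bp (chr17:35332523-35333019) and 656 bp (chr17:35337207-35337862). The 397 bp peak was the narrowest of the 39. The first peak of the window, 499 bp at chr17:35315498-35315996, and another peak preceded this run. A stretch of 17.6 kb without a peak followed the run.

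Then came 3 narrow peaks in 4.24 kb, of 477 bp (chr17:35355487-35355963), 440 bp (chr17:35356663-35357102) and 515 bp (chr17:35359210-35359724). A peak of 766 bp (chr17:35367816-35368581) and another, narrower peak stood between this run and the third. The third run held peaks of 750 bp (chr17:35378167-35378916), 550 bp (chr17:35379534-35380083) and 931 bp (chr17:35382981-35383911) in 5.75 kb. Widths in the first and second run stayed below 750 bp, and the 4 peaks of 750 bp or more lay further along.

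The last run ended the occupied part of the window. It comprised peaks of 709 bp (chr17:35394912-35395620) and 724 bp (chr17:35395847-35396570), 226 bp apart, and the widest peak of the window, 1535 bp at chr17:35399525-35401059, with 14 wider on the chromosome. The remaining 28.9 kb of the window held no peak, and the next peak lay 8.70 kb beyond its end. In bins of 10 kb, 9 of 12 held a peak, against 10 of 27 in the H2-K1 and antigen processing window.

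**Figure D4:**
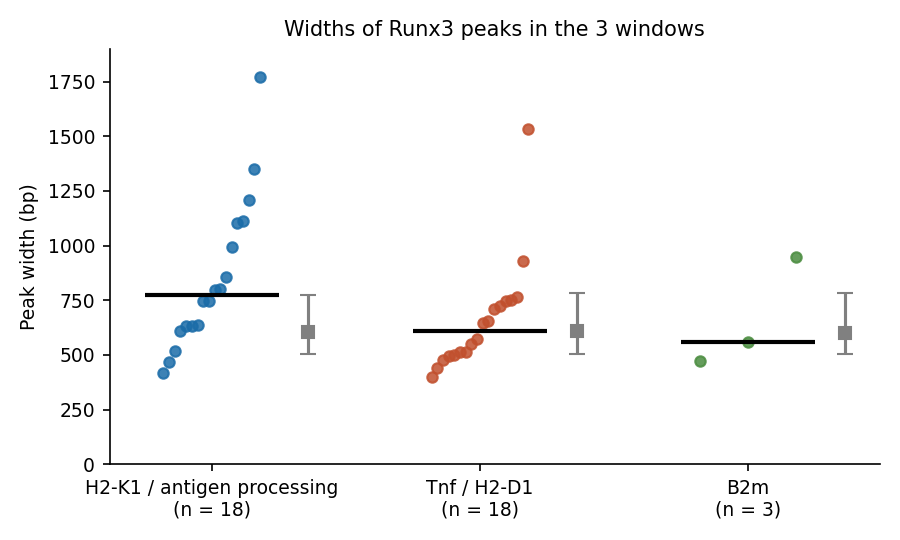
Width in bp (y axis) of each Runx3 peak in the 3 windows, in ascending order (coloured points), with the median (black line); the grey square and bar are the median and quartiles of the other peaks of the same chromosome. The median of the H2-K1 and antigen processing window, 772 bp, stands near the upper grey quartile of 776 bp, and those of the Tnf and H2-D1 (609.5 bp) and B2m (558 bp) windows near the grey medians.

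B2m encodes the light chain shared by class I molecules and is unlinked to the MHC. Its window held 3 peaks. The first, 558 bp at chr2:121943923-121944480, stood 28.6 kb from the second, 949 bp at chr2:121973115-121974063. The third, 472 bp at chr2:121974137-121974608, followed the second after a gap of 73 bp. This close pair stood 43.6 and 44.4 kb into the 90 kb window, and the remaining 45.4 kb held no peak. None of the 3 exceeded 1000 bp, and their median, 558 bp, lay below the 598 bp of the other 1521 peaks of chromosome 2. In the gene table B2m lies inside the annotated span of Patl2, so the window also holds at least part of another gene.

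The peak list carries no sequence. RefSeq promoter windows, from 250 bases before to 50 bases after a transcript start on GRCm38.p6, were available for 9 of the 10 members, the exception being Tap2, and the most upstream start of each gene was used. Their coordinates belong to another build than the peaks and cannot be set against them, so the letters below describe the genes and not the peaks. The 250 bases before the start of H2-K1 and H2-D1 are shown because these promoters share an NF-kB element, and the 225 bases between the divergent starts of Psmb9 and Tap1 because both genes share them. Capitals mark GGGATTCCC, a site bound by NF-kB, and CCAATCAG, a sequence that holds a CCAAT box.
H2-K1 (GRCm38.p6 chr17:34000348-34000597, minus strand): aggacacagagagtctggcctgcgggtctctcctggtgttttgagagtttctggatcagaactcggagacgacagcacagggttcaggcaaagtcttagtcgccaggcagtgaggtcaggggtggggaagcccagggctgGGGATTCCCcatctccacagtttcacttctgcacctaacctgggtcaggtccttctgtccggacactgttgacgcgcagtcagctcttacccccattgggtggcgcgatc
H2-D1 (GRCm38.p6 chr17:35262844-35263093, plus strand): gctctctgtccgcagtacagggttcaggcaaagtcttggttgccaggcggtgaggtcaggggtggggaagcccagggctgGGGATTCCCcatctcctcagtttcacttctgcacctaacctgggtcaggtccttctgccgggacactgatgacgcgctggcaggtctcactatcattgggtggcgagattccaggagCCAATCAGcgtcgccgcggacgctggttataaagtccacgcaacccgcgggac
Psmb9-Tap1 (GRCm38.p6 chr17:34187331-34187555, plus strand): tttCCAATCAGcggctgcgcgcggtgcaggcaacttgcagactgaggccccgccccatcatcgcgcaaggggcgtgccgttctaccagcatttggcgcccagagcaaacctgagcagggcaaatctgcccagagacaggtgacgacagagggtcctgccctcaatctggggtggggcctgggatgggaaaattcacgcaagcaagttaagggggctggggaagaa

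The H2-K1 and H2-D1 promoters aligned over 228 columns with 206 identical (90.4%). The longest run identical in both was 47 bases, and none of the 251 stretches of 50 bases, the read length, in the H2-K1 promoter occurred in that of H2-D1. This counts exact matches between these promoter windows only, without mismatches or other class I genes. It cannot tell whether reads were placed uniquely. The labels do not state how reads that fit several class I genes were placed. The mice were ICR, an outbred stock, whereas the mm9 reference is of the inbred strain C57BL/6J; class I genes are highly polymorphic between strains, and the part of this in the peaks was not tested. The NF-kB site was found in 2 of 9 members, H2-K1 and H2-D1, and in 0.374% of the 27025 promoters in the table. It lay within the run of 47 bases identical in both promoters, so the 2 are no independent count. CCAATCAG was found in 4 of 9, H2-K1, H2-D1, Psmb9 and Tap1, and in 4.31% of all promoters. Psmb9 and Tap1 hold it through the same site, and the H2-K1 and H2-D1 promoters are alike, so the 4 are no independent count. In H2-K1 CCAATCAG lay at bases 9 to 16 after the start, counting the start as 1, and in H2-D1 at -53 to -46. The NF-kB site was displaced in the same direction, at -110 to -102 in H2-K1 and -170 to -162 in H2-D1. These positions depend on the start used for each gene. Both motifs were chosen after the sequences were seen, and all motifs were searched on both strands.

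The RUNX core TGTGGT was in none of the 9 members' promoter windows, and in 16.9% of all promoters. The longer TGTGGTT was in 0 of 9 against 5.37%. Allowing TGCGGT as well gave 1 of 9, Lta, where TGCGGT lay at bases 17 to 22 after the start, against 22.5% (6.44% for TGCGGT alone). The absence of these letters applies to these windows of 300 bases and not to the peaks, whose sequence was not read.

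Other elements were searched too. The STAT motif TTCNNNGAA, of a factor family that acts below the IL-15 receptor, was in 3 of 9 members against 8.42% of all promoters: Psmb8 held it at -97 to -89, Ltb at -172 to -164, and Lta held 2 copies at -152 to -144 and -16 to -8. The interferon-stimulated response element was searched only as an exact pair of GAAA repeats spaced by 2 bases. That pattern was in 1 of 9, B2m at -139 to -130, against 3.49%. Looser or differently spaced forms were not searched, so the element is not shown to be absent from the other members. ACCGGAAG, an ETS site, was in 0 of 9 against 2.34%, and GGGANTTCC, another NF-kB form, in 0 of 9 against 1.68%. Lta and B2m are shown with these matches in capitals.
Lta (GRCm38.p6 chr17:35205352-35205601, minus strand): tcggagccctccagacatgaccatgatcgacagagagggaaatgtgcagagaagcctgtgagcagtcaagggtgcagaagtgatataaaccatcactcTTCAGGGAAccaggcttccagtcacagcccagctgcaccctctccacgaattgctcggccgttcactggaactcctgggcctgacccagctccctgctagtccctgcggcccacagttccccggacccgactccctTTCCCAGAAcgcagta
B2m (GRCm38.p6 chr2:122147437-122147686, plus strand): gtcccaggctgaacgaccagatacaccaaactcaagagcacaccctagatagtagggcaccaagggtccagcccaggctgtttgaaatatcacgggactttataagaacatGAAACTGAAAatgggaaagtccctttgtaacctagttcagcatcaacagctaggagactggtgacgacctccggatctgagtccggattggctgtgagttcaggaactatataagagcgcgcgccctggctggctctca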

How the data were processed

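Per the labels' protocols, chromatin fixed in 1% formaldehyde was sheared to about 200 bp, and 50 bp reads were aligned with ELAND. The submitters' processing notes name CASAVA 1.8.2 and mm9. Neither the peak caller nor its threshold nor the use of the control is given in the sources used here. What the authors deposited is 1 list of 3 columns (chromosome, start, end) without header or score, so depth and precision per peak are unknown. Its name holds the words "to small", so it may be a reduced list.

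Starts were converted to count from 1. A peak belonged to a window by its midpoint. Density was peaks per kb with an exact 95% Poisson interval. Equal windows were whole, non-overlapping tiles anchored on the window. Promoter windows and gene order came from RefSeq (GRCm38.p6), and letters were matched on both strands. The members, windows and lists were chosen with earlier results of these data known. All 10 genes are named. In windows with over 12 peaks those named are the 5 widest, the 2 narrowest, the first, the last and those in runs of 3 or more with midpoints at most 5 kb apart. With 1 library no test was made, and ranks and intervals are descriptions. The code was tested on simulated peaks. Alternatives were joined peaks, wider peaks, overlap, shifted, peak-holding and genome-wide windows, other motifs and, added after the data were seen, window ends moved by 20 kb. Python 3.11.15, numpy 2.4.6, scipy 1.17.1, Biopython 1.88 and matplotlib 3.10.9 were used.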

Additional observations from a re-analysis of the deposited data

How the results depend on the processing

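Of 47 recomputed values for 10 results, 40 stayed within the counting or order-statistic interval of the value given. For B2m widths their range was used instead, and the RUNX count had to equal the value given. The density of the H2-K1 and antigen processing window lay between 0.0556 and 0.0739 peaks per kb, and the share of equal windows at least as full between 0.295 and 1.18%. For the TNF and H2-D1 window the density was 0.0750 peaks per kb with only peaks at or above the median width, a loss of peaks by construction, yet 0% of equal windows of chromosome 17 were as full under each setting; over all chromosomes the share was 0.00470%. Its median width became 756 bp when gaps of up to 1000 bp were joined, which merges peaks. The B2m share of equal windows rose to 17.7% with joined peaks, 22.8% with the wider peaks and 31.6% among windows with at least 1 peak, and its median width to 1026 bp after joining. With TGCGGT allowed, 1 member in place of 0 held a RUNX motif. No paired analysis was possible because there is a single library for each antibody.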

Other observations

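Promoters of further genes of the class I pathway and of the TNF family were searched for the same letters. RefSeq promoter windows were at hand for 16 of 19 class I pathway genes, members included, and for 9 of 9 genes of the TNF family and its receptors. The RUNX core TGTGGT, present in 16.9% of all promoters, was in 2 of the 16, Tapbp, which encodes the chaperone that bridges class I to the transporter, and Psmb10, the third catalytic subunit of the immunoproteasome. It was in 1 of the 9, Tnfsf14, a ligand of Ltbr. The exact GAAA pair searched for the interferon-stimulated response element was in 4 of the 16: B2m, Psme1, Erap1 and H2-T23. It was in 1 of the 9, Tnfrsf1b, against 3.49% of all promoters. Psme1 encodes a subunit of a proteasome activator, Erap1 a peptide-trimming enzyme of the endoplasmic reticulum, and H2-T23 the non-classical class I molecule Qa-1. CCAATCAG was in 6 of the 16, with Canx and H2-T23 beside the 4 members, and in 0 of the 9, against 4.31%. It was chosen after the members' sequences were seen, and Psmb9 and Tap1 share the same site, so the 6 are no independent count. The STAT motif TTCNNNGAA was in 2 of the 16, Psmb8 and H2-M3, and in 4 of the 9, Lta, Ltb, Tnfrsf1a and Tnfrsf1b, against 8.42%. Peaks were not assigned to genes, so whether any of these genes carries a Runx3 peak was not tested.

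Of the 31 peaks between both chromosome 17 windows 2 (6.45%) were wider than 1000 bp, and their median was 668 bp. Between Tap2 and Ltb the gene table lists 61 protein-coding genes, among them the class II genes H2-Ab1, H2-Aa and H2-Eb1, the complement genes C4b, Cfb and C2, and the heat shock genes Hspa1a and Hspa1b.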
